A study of Mus musculus with 2 samples.

Results

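A set of 10 genes of glucose uptake and glycolysis was followed through the cell classes of the embryonic mouse dorsal telencephalon, namely the glucose transporters *Slc2a1* and *Slc2a3*, the hexokinases *Hk1* and *Hk2*, the aldolases *Aldoa* and *Aldoc*, and *Pgk1*, *Eno1*, *Pkm* and *Ldha*. They were listed by name and not by a cut-off on their levels, though with earlier results of these data known. They are 10 of the 32285 genes in the count matrices. The data were single cell RNA sequencing (scRNA-seq) counts from 2 WT samples of brain hemispheres at E14.5, control animals of the Eomes-Cre mouse line, with 1 droplet-based 3' library each, called replicates 1 and 3 after their labels. Which alleles the controls carried is not given in the sources used here, no condition other than WT was compared, and nothing in the labels says whether the samples came from 1 litter. Counts are of unique molecular identifiers (UMIs), each marking 1 captured RNA molecule.

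Glycolysis splits glucose into pyruvate in the cytosol and yields ATP without oxygen. Glucose enters through facilitative transporters of the GLUT family, of which GLUT1 (*Slc2a1*) is the main transporter of the blood-brain barrier and GLUT3 (*Slc2a3*) is best known from neurons. Hexokinases trap glucose as glucose 6-phosphate, aldolases cleave fructose 1,6-bisphosphate, phosphoglycerate kinase (*Pgk1*) and pyruvate kinase (*Pkm*) are the steps that make ATP, enolase (*Eno1*) acts between them, and the lactate dehydrogenase subunit encoded by *Ldha* turns pyruvate into lactate. Several steps have a second gene with its own tissue pattern, and *Aldoc* is known from astrocytes and *Eno2* from neurons. Many of these genes are known targets of hypoxia-inducible factors (HIFs), whose binding sites share the cores ACGTG and GCGTG.

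In RefSeq on GRCm38.p6, the assembly also called mm10, *Slc2a1* lies on chromosome 4 (ENSMUSG00000028645, 119108745 to 119137330), *Slc2a3* on chromosome 6 (ENSMUSG00000003153, 122727809 to 122802363), *Hk1* on chromosome 10 (ENSMUSG00000037012, 62268855 to 62379920), *Hk2* on chromosome 6 (ENSMUSG00000000628, 82725025 to 82774454) and *Aldoa* on chromosome 7 (ENSMUSG00000030695, 126795234 to 126800994). *Aldoc* lies on chromosome 11 (ENSMUSG00000017390, 78323073 to 78327781), *Pgk1* on chromosome X (ENSMUSG00000062070, 106187100 to 106203699), *Eno1* on chromosome 4 (ENSMUSG00000063524, 150236708 to 150248879), *Pkm* on chromosome 9 (ENSMUSG00000032294, 59656576 to 59679372) and *Ldha* on chromosome 7 (ENSMUSG00000063229, 46842274 to 46855627). Promoter sequences from RefSeq on the same build were matched for 9 of the 10 genes, all but *Slc2a3*. The 250 bases before the first listed transcript start are shown for 4 genes that stand for entry (*Slc2a1*), the first step (*Hk2*), the first ATP step (*Pgk1*) and the last step (*Ldha*) and that were all higher in radial glia-like than in projection neuron-like cells, as given further on. They run 5′ to 3′ on the strand of the gene, and capitals mark every ACGTG or GCGTG on either strand, so that the reverse complements CACGT and CACGC are marked too.
Slc2a1 (chr4:119108495-119108744, plus strand): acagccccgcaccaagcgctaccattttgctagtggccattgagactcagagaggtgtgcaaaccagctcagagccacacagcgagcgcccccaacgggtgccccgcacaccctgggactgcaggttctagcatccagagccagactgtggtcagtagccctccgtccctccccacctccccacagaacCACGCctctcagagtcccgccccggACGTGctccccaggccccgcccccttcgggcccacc
Hk2 (chr6:82774455-82774704, minus strand): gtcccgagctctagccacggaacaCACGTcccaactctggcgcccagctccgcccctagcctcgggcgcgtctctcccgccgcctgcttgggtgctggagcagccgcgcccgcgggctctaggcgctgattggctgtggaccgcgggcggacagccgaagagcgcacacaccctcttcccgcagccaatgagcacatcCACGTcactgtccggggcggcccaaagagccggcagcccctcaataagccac
Pgk1 (chrX:106186850-106187099, plus strand): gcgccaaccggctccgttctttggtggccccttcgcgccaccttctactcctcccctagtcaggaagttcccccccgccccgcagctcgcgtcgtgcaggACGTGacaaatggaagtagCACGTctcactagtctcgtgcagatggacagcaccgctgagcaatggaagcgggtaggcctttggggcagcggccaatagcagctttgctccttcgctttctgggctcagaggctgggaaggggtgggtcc
Ldha (chr7:46845554-46845803, plus strand): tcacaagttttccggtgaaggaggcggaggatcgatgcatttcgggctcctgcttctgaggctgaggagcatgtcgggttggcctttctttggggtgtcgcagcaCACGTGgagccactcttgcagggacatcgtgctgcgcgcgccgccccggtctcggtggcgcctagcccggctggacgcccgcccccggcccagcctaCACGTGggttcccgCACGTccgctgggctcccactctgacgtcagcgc
*Ldha* held 5 such positions in this window, where a CACGTG counts on both strands, and *Slc2a1*, *Hk2* and *Pgk1* held 2 each. Of the 9 genes with a window, 6 held at least 1 position, against 38.6% of 27025 promoter windows of the same length, 1 per gene. The first windows of *Hk1*, *Aldoa* and *Pkm* held none, while the second listed windows of these genes held 3, 1 and 1. A match of these letters is a description of the sequence and shows no binding.

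The filters left 5215 and 7035 cells in replicates 1 and 3, from libraries of 64182006 and 93295807 UMIs, and 23 cell barcodes occurred in both libraries. Cells were clustered without the 10 genes and named from marker lists. Radial glial cell (RGC)-like cells numbered 685 and 1568 in replicates 1 and 3, intermediate progenitor cell (IPC)-like cells 750 and 1430, projection neuron (PN)-like cells 2677 and 3061, and interneuron-like cells of the medial ganglionic eminence (MGE) 328 and 221. Endothelial-like cells numbered 26 and 61, pericyte-like cells 40 and 47, and erythroid-like cells 67 and 114. UMIs were summed per class and replicate and levels are given as CPM, the UMIs of a gene in every 1000000 UMIs of that sum. With 1 sum per class and replicate, fewer transcripts of a gene cannot be told apart from more transcripts of other genes. A replicate is 1 sample, and p-values measure the spread between these 2 samples.

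The 10 genes together took the largest share of UMIs among the named classes in RGC-like and endothelial-like cells. Their share was 0.199% and 0.224% among RGC-like cells of replicates 1 and 3, 0.122% and 0.135% among IPC-like cells, and 0.0705% and 0.0901% in PN-like cells. MGE interneuron-like cells had 0.0290% and 0.0393%, below every other named class but erythroid-like cells. In the vascular classes the share was 0.228% and 0.198% in endothelial-like and 0.147% and 0.165% in pericyte-like cells. Replicate 3 lay above replicate 1 in 6 of these 7 classes, with endothelial-like cells as the exception, and the replicates of RGC-like, IPC-like, PN-like and MGE interneuron-like cells did not overlap between classes.

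**Figure D1:**
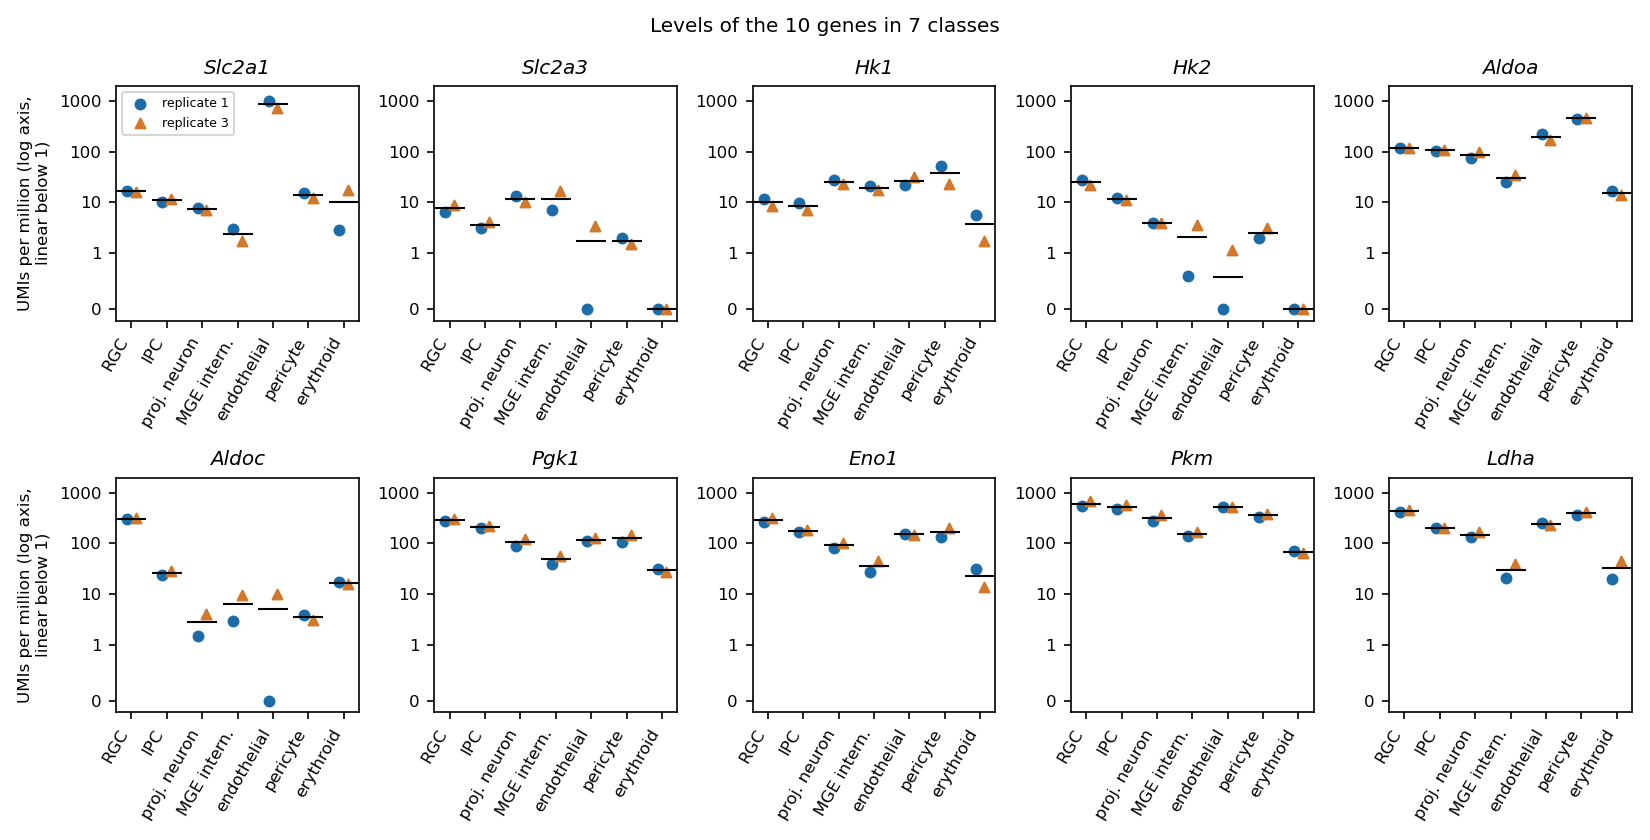
CPM of each gene (y axis, logarithmic above 1 and linear below) in 7 cell classes (x axis), with a circle for replicate 1, a triangle for replicate 3 and a bar for their mean. *Slc2a1* stood at 992 and 750.5 CPM in endothelial-like cells, and *Aldoc* at 301 and 318 CPM among RGC-like cells.

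To compare progenitors with their neuronal progeny, RGC-like cells were set against PN-like cells. All comparisons between sums used the quasi-likelihood test of edgeR, p-values were adjusted by the Benjamini-Hochberg method across the genes tested, the threshold was an adjusted p of 0.05, and differences are log2 fold changes. Of the 10 genes, 7 were higher in RGC-like cells, 2 were lower and 1 did not pass the threshold. In the same comparison 62.4% of 12534 genes passed the threshold in either direction, and 30.6% of the 12534 were higher and 31.8% lower in RGC-like cells, so that most genes differed between these classes. The median log2 fold change was 1.11 over the 10 genes and -0.01 over all genes. The split of all genes called depended on the scaling, with 49.0% of them higher after TMM scaling and 59.5% with library sizes alone. Ribosomal protein genes took 12.7% and 13.3% of UMIs in RGC-like and 8.46% and 8.34% in PN-like cells, *Malat1*, a nuclear RNA, 0.688% and 0.706% against 1.57% and 1.70%, and mitochondrial genes 2.62% and 3.14% against 3.17% and 3.67%. Their part in the results was not tested.

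Among the transporters the GLUT genes went in opposite directions between the RGC-like and PN-like class sums, though not in every PN-like cluster, as given further on. *Slc2a1* reached 16.9 and 16.2 CPM among RGC-like cells of replicates 1 and 3, 10.2 and 11.8 CPM among IPC-like cells, and 7.70 and 7.26 CPM in PN-like cells. Its class sums thus stepped down along the lineage in both replicates. The step from IPC-like to PN-like cells did not pass the threshold (0.41, adjusted p = 0.120). RGC-like exceeded PN-like cells by 0.94 on the log2 scale (SE 0.19, adjusted p = 0.000684). *Slc2a3* reached 13.4 and 10.3 CPM in PN-like cells, 6.45 and 9.04 CPM among RGC-like cells, and 3.08 and 4.09 CPM among IPC-like cells. IPC-like cells were lowest in both replicates. *Slc2a3* was lower in RGC-like than in PN-like cells (-0.75, SE 0.27, adjusted p = 0.0285), a call lost with library sizes alone, DESeq2, the stricter filter on cells and coarser clusters (adjusted p from 0.0634 to 0.0894). It was also lower in IPC-like than in PN-like cells (-1.79, SE 0.30, adjusted p = 0.000260). As a share of the UMIs of both transporters, *Slc2a3* made up 27.6% and 35.9% among RGC-like cells, 23.2% and 25.6% among IPC-like cells, and 63.5% and 58.6% in PN-like cells. These shares count molecules, since a 3' library gives 1 UMI per captured transcript whatever its length, and a difference in capture between genes would enter them.

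The hexokinases changed places between the progenitor and PN-like class sums, though *Hk1* was not clearly higher in every PN-like cluster, as given further on. *Hk2*, the inducible form, stood at 28.2 and 22.02 CPM among RGC-like cells, 12.1 and 10.96 CPM among IPC-like cells, and 3.90 and 3.89 CPM in PN-like cells. The replicates of the 3 classes did not overlap. *Hk1*, the form of most brain cells in the adult, stood at 27.7 and 23.1 CPM in PN-like cells against 11.6 and 8.46 CPM among RGC-like and 9.96 and 7.22 CPM among IPC-like cells, and there the progenitor classes overlapped. RGC-like against PN-like cells differed by 2.43 (log2, SE 0.21, adjusted p = 2.52e-07) for *Hk2* and by -1.53 (SE 0.22, adjusted p = 2.95e-05) for *Hk1*. The share of *Hk2* in the UMIs of both hexokinases was 70.7% and 72.3% among RGC-like cells, 54.8% and 60.3% among IPC-like cells, and 12.3% and 14.4% in PN-like cells.

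*Aldoc* had the largest fold change of the 10 genes. It reached 301 and 318 CPM among RGC-like cells, 23.6 and 28.6 CPM among IPC-like cells, and 1.47 and 4.01 CPM in PN-like cells. RGC-like cells exceeded PN-like cells by 6.52 (log2, SE 0.35, adjusted p = 9.00e-10), which is 91.5-fold, and IPC-like cells by 3.52 (SE 0.30, adjusted p = 5.51e-07), or 11.4-fold. The size of the first difference rested on few UMIs in PN-like cells and was 6.08 without replicate 1 and 7.25 without replicate 3. The other aldolase, *Aldoa*, differed little, with 121 and 121 CPM among RGC-like cells, 105 and 108 CPM among IPC-like cells, and 76.3 and 97.3 CPM in PN-like cells. Its log2 fold change of 0.29 (SE 0.15, adjusted p = 0.102) for RGC-like against PN-like cells did not pass the threshold, but did with a replicate block (adjusted p = 0.0312), with library sizes alone (0.0141), with DESeq2 (0.0490) and with thinned cells (0.00751). As a share of both aldolases, *Aldoc* fell along the lineage from 71.4% and 72.5% among RGC-like cells through 18.4% and 20.9% among IPC-like cells to 1.89% and 3.96% in PN-like cells. After each cell was thinned to 1500 UMIs, an *Aldoc* UMI was found in 30.8% (95% Wilson interval 27.5 to 34.4) and 34.2% (31.9 to 36.6) of RGC-like cells, and in 0.224% and 0.555% of PN-like cells. Without thinning the shares were 85.7% among RGC-like cells of either replicate and 1.68% and 3.72% in PN-like cells, where the median cell had 12986 and 12023.5 UMIs and 11221 and 10763 UMIs in this order. The intervals cover counting error only.

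The 4 enzymes of the lower part of the pathway were all higher in RGC-like than in PN-like cells. *Ldha* reached 407.5 and 454 CPM among RGC-like, 200.3 and 203 CPM among IPC-like, and 131 and 164 CPM in PN-like cells. *Pgk1* reached 279 and 308 CPM, 202 and 220 CPM, and 88.5 and 124 CPM in the same order. *Eno1* reached 264 and 312 CPM, 167 and 184 CPM, and 82.8 and 103 CPM. For these 3 genes the classes stood in 1 order, RGC-like above IPC-like above PN-like, with no overlap of replicates. The log2 fold changes of RGC-like against PN-like cells were 1.36 for *Ldha* (SE 0.22, adjusted p = 7.10e-05), 1.28 for *Pgk1* (SE 0.18, adjusted p = 1.85e-05) and 1.44 for *Eno1* (SE 0.19, adjusted p = 1.02e-05). *Pkm*, the most abundant of the 10 by UMIs, had a smaller difference. Its levels were 551 and 672 CPM among RGC-like, 483 and 571 CPM among IPC-like, and 272 and 364 CPM in PN-like cells, a difference of 0.76 between RGC-like and PN-like cells (log2, SE 0.18, adjusted p = 0.00194).

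**Figure D2:**
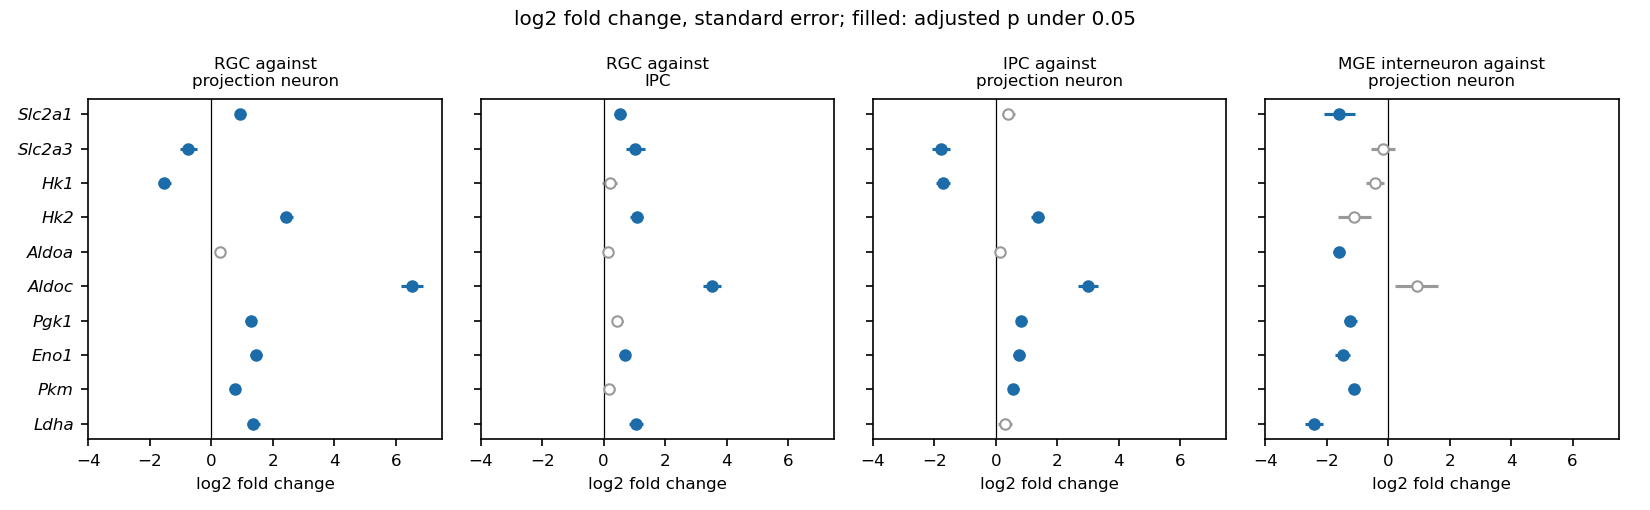
log2 fold change with its standard error (x axis) for each of the 10 genes (y axis) in 4 comparisons between cell classes, filled where the adjusted p was under 0.05. In the comparison of RGC-like with PN-like cells *Aldoc* lies at 6.52, *Hk2* at 2.43 and *Hk1* at -1.53, and in that of MGE interneuron-like with PN-like cells *Ldha* lies at -2.41.

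The intermediate progenitors divided the change in steps that differed by gene. Set against IPC-like cells, RGC-like cells had higher levels of 6 genes and lower levels of none, where 44.2% of all genes passed the threshold, 24.9% higher and 19.3% lower. These were *Slc2a1* (0.53, adjusted p = 0.0483), *Slc2a3* (1.03, adjusted p = 0.0163), *Hk2* (1.07, adjusted p = 0.000962), *Aldoc*, *Eno1* (0.68, adjusted p = 0.00869) and *Ldha* (1.06, adjusted p = 0.00110). *Pgk1* was at 0.44 (adjusted p = 0.0541) and passed with the replicate block (adjusted p = 0.00164). *Slc2a1* lost its call with the stricter cell filter, with doublets kept, with coarser clusters and with thinned cells (adjusted p from 0.0696 to 0.497), and *Slc2a3* with coarser clusters (0.86, adjusted p = 0.0548). *Hk1* (0.19, adjusted p = 0.577), *Aldoa* (0.15, adjusted p = 0.447) and *Pkm* (0.18, adjusted p = 0.439) did not pass. Between IPC-like and PN-like cells 5 genes were higher in IPC-like cells and 2 lower, where 45.2% of all genes passed (21% higher and 24.2% lower). The higher genes were *Aldoc* (3, adjusted p = 3.03e-06), *Hk2* (1.36, adjusted p = 0.000158), *Pgk1* (0.83, adjusted p = 0.00132), *Eno1* (0.76, adjusted p = 0.00386) and *Pkm* (0.57, adjusted p = 0.0170). The lower ones were *Slc2a3*, given above, and *Hk1* (-1.72, SE 0.23, adjusted p = 2.35e-05), while *Aldoa* did not pass (0.14, adjusted p = 0.478). *Pkm* lost its call with the stricter cell filter (0.52, adjusted p = 0.0692), and *Aldoc* was at 3.62 without replicate 3. *Ldha* did not pass (0.30, SE 0.22, adjusted p = 0.290), and its value rested on how IPC-like clusters were drawn, with 0.62 (adjusted p = 0.0282) for coarser and -0.09 for finer clusters. *Slc2a1* did not pass either (0.41, adjusted p = 0.120, and 0.0498 with the replicate block). Of all genes called between IPC-like and PN-like cells, 46.5% were higher in IPC-like cells after TMM scaling and 59.0% with library sizes alone.

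**Figure D3:**
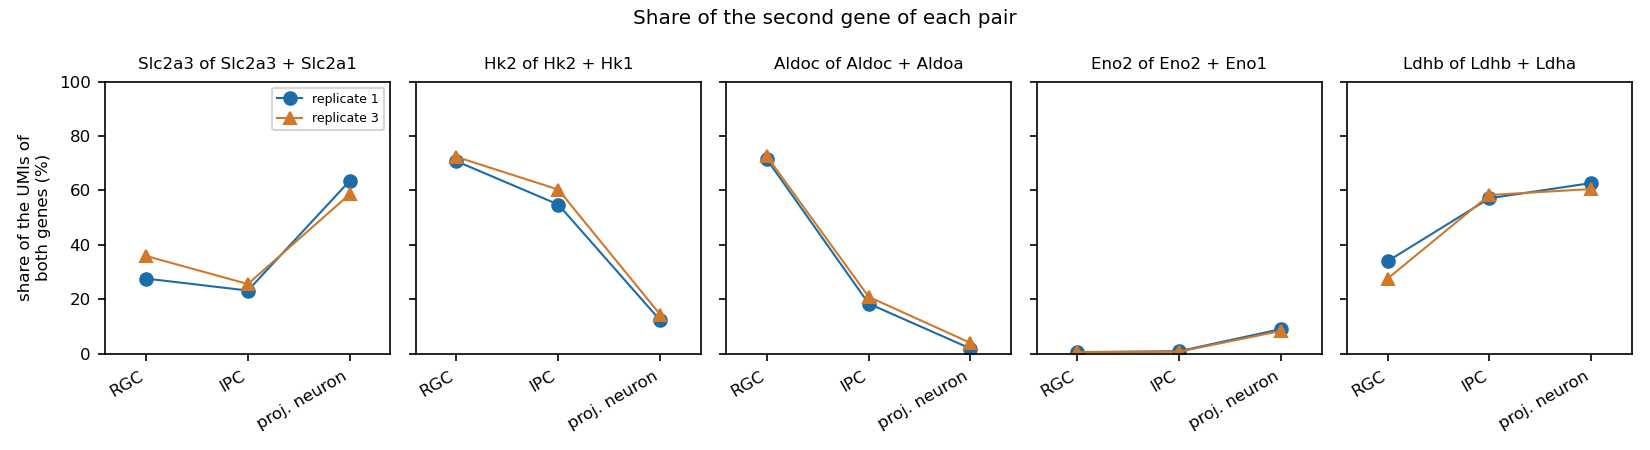
Share of the second gene in the UMIs of each pair of genes for the same step (y axis, percent) in RGC-like, IPC-like and PN-like cells (x axis), with a line for each replicate. *Aldoc* and *Hk2* fall from 72.0% and 71.5% on average in RGC-like cells to 2.92% and 13.4% in PN-like cells, while *Slc2a3*, *Eno2* and *Ldhb* are higher in PN-like than in RGC-like cells.

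Genes outside the 10 completed 2 further pairs. *Eno2*, the neuronal enolase, made up 0.597% and 0.549% of the UMIs of *Eno1* and *Eno2* in RGC-like cells, 0.912% and 0.733% among IPC-like cells, and 9.05% and 8.37% in PN-like cells. *Ldhb*, whose subunit favours the oxidation of lactate, made up 34.0% and 27.6% of the UMIs of *Ldha* and *Ldhb* in RGC-like cells, 57.1% and 58.3% among IPC-like cells, and 62.7% and 60.5% in PN-like cells. The *Ldhb* share of IPC-like and PN-like cells depended on the clusters, with means of 50.1% and 63.7% for coarser and 65.9% and 57.9% for finer clusters, so that the direction between these classes turned, while RGC-like cells were lowest under both.

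Since the 10 genes had no part in the clustering, their levels were also read in single clusters, as a description with no test. IPC-like cells fell into 3 clusters. In cluster 7, led by *Gadd45g* and *Neurog2*, *Ldha* stood at 447 and 425 CPM, *Pgk1* at 312 and 322 CPM, *Hk2* at 19.9 and 22.4 CPM, and *Aldoc* at 75.2 and 83.6 CPM. In cluster 2, led by *Kif26b* and *Eomes* and with *Neurod1* among its top genes, *Ldha* was at 85.8 and 100.9 CPM, *Pgk1* at 147 and 162.5 CPM, *Hk2* at 7.49 and 5.66 CPM, and *Aldoc* at 4.31 and 6.89 CPM. The *Ldha* and *Pgk1* levels of cluster 7 thus lay within the range of the RGC-like clusters, and the *Ldha* level of cluster 2 within that of the PN-like clusters. Cluster 14, led by *Neil3* and *Rrm2* and with *Cenpe* and *Top2a* among its top genes, lay between them for *Ldha*, at 178 and 170 CPM.

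The 4 RGC-like clusters differed in *Aldoc* and *Hk2*. *Aldoc* was at 378 and 421 CPM in cluster 3, led by *Mt3* and *Fabp7*, and at 178 and 169 CPM in cluster 16, led by the mitotic genes *Cenpa* and *Cdc20*. *Hk2* was lowest in cluster 4, led by histone genes, with 15.4 and 15.7 CPM, against 46.0 and 32.3 CPM in cluster 12. *Slc2a1* was highest in cluster 16, with 33.8 and 27.5 CPM. Among the 8 PN-like clusters *Hk1* stood at 11.4 and 12.1 CPM in cluster 0, led by *Unc5d* and *Nrp1*, and at 40.6 and 36.1 CPM in cluster 1, led by *Hs3st4*. In cluster 0 *Hk1* thus lay near the RGC-like class (11.6 and 8.46 CPM), and in cluster 5 it was at 17.2 and 11.3 CPM. *Pkm* ran the other way between clusters 0 and 1, from 391 and 500 CPM in cluster 0 to 148 and 190 CPM in cluster 1. *Slc2a3* stood at 4.17 and 4.66 CPM in cluster 0, below the RGC-like class and below *Slc2a1* there (13.4 and 9.32 CPM). In cluster 1 it was at 16.5 and 13.9 CPM, and every PN-like cluster but cluster 0 lay above the RGC-like class in both replicates. RGC-like cluster 3 had 8.38 and 12.9 CPM of *Slc2a3*. *Ldha* was highest in cluster 13, led by *Gm32647* and *Crym*, at 247 and 294 CPM, and low in cluster 0, at 65.8 and 104 CPM. *Aldoc* stayed at or under 7.08 CPM in all 8 clusters in both replicates.

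**Figure D4:**
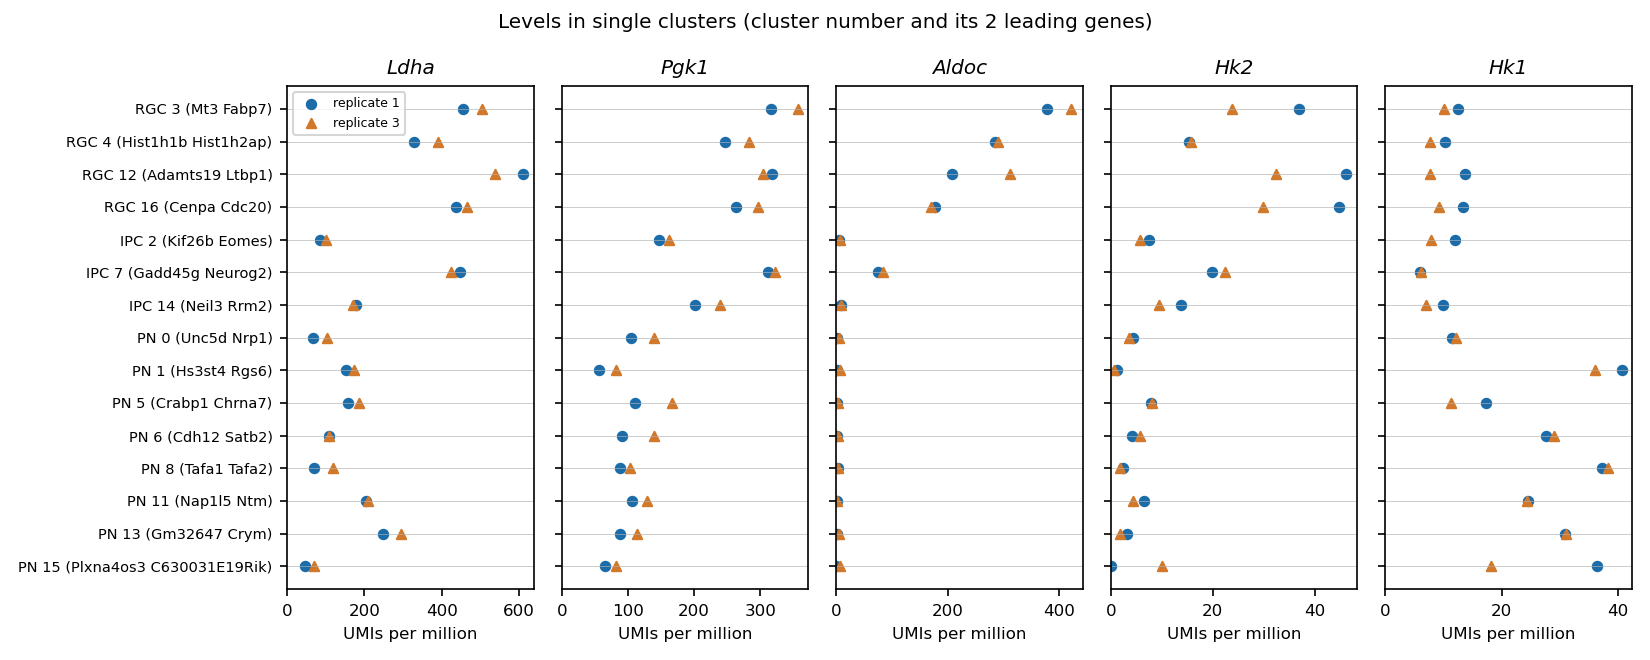
CPM (x axis) of *Ldha*, *Pgk1*, *Aldoc*, *Hk2* and *Hk1* in each cluster of the RGC-like, IPC-like and PN-like classes (y axis, with cluster number and its 2 leading genes), with a circle for replicate 1 and a triangle for replicate 3. IPC cluster 7 lies near the RGC clusters for *Ldha*, at 447 and 425 CPM, and IPC cluster 2 near the projection neurons, at 85.8 and 100.9 CPM.

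RGC-like cells with at least 3000 UMIs were assigned to G1, S or G2M from gene lists, which gave 229, 216 and 217 cells in replicate 1 and 512, 572 and 449 cells in replicate 3. Of the 10 genes, 3 differed between S and G1 and 2 between G2M and G1, where 9.65% and 7.98% of 12664 genes passed the threshold. Of all genes 7.16% were higher and 2.49% lower in S, and 5.86% were higher and 2.12% lower in G2M. *Aldoc* was higher in S, with 445 and 435 CPM against 257 and 290 CPM in G1 and 215 and 217 CPM in G2M. The difference between S and G1 was 0.74 (log2, SE 0.11, adjusted p = 0.00619). *Aldoa* fell from 202 and 171 CPM in G1 to 111 and 127 CPM in S and 72.6 and 77.3 CPM in G2M (-0.58, adjusted p = 0.0253, and -1.25, adjusted p = 0.000737, against G1). The replicates of the 3 phases did not overlap for either aldolase. The aldolases thus differed in opposite directions between S and G1, and both had their lowest level in G2M.

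*Slc2a1* was lower in S than in G1 (13.5 and 11.5 against 24.7 and 20.9 CPM, -0.79, SE 0.18, adjusted p = 0.0376), a call lost with DESeq2 (adjusted p = 0.143) and without thinning of the phase scores (-0.50, adjusted p = 0.110). *Ldha* was lower in G2M than in G1, with 309 and 377 against 539 and 542 CPM (-0.60, SE 0.13, adjusted p = 0.0309). *Hk2* stood at 42.3 and 28.8 CPM in G1 and 19.8 and 17.9 CPM in G2M and did not pass (-0.83, SE 0.20, adjusted p = 0.0515). The other genes did not pass either, with adjusted p from 0.162 to 0.812 for S and from 0.143 to 0.825 for the rest in G2M, *Slc2a3* (0.24 in S and -0.15 in G2M) and *Hk1* (0.15 and -0.21) among them. With the replicate block, which removes the difference between the libraries, 5 of the 10 genes passed for S, with *Hk2* (-0.49, adjusted p = 0.0176) and *Ldha* (-0.22, adjusted p = 0.0206) added, and 7 for G2M, with *Hk2* (-0.80, adjusted p = 0.000817), *Eno1* (-0.42, adjusted p = 0.000219), *Pgk1* (-0.29, adjusted p = 0.00448), *Aldoc* (-0.30, adjusted p = 0.00678) and *Pkm* (-0.19, adjusted p = 0.0253) added, all lower in G2M. The block also raised the number of all genes called, from 1222 to 3401 for S and from 1010 to 3187 for G2M.

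**Figure D5:**
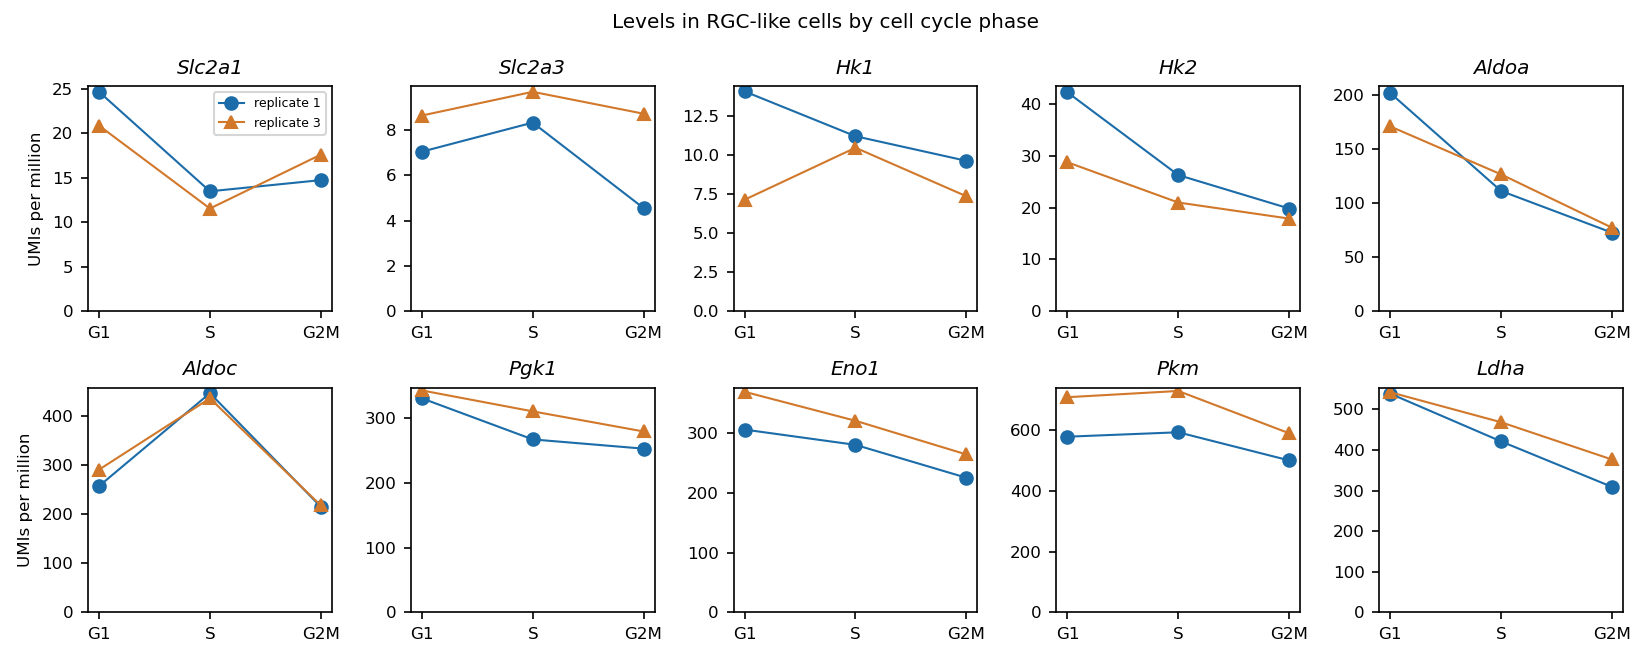
CPM of each of the 10 genes (y axis, from 0) in RGC-like cells called G1, S or G2M (x axis), with a line for each replicate. *Aldoc* peaks in S at 445 and 435 CPM, and *Aldoa* falls from 202 and 171 CPM in G1 to 72.6 and 77.3 CPM in G2M.

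MGE interneuron-like cells had lower levels than PN-like cells for 6 of the 10 genes and higher levels for none, where 34.2% of all genes passed the threshold (15% higher and 19.3% lower). *Ldha* showed the largest called difference, with 20.5 and 39.6 CPM against 131 and 164 CPM in PN-like cells (-2.41, SE 0.28, adjusted p = 1.55e-05). *Aldoa* stood at 25.7 and 35.2 CPM against 76.3 and 97.3 CPM (-1.59, SE 0.19, adjusted p = 2.43e-05). *Eno1* (-1.47), *Pgk1* (-1.23) and *Pkm* (-1.10) were lower too, with adjusted p from 0.000317 to 0.000559, and no replicates overlapped between the classes. *Slc2a1* rested on few UMIs (2.93 and 1.76 CPM, -1.58, adjusted p = 0.0210). *Slc2a3* and *Hk1*, the genes higher in the PN-like class than in either progenitor class, did not pass here (-0.15, SE 0.39, adjusted p = 0.801 and -0.43, SE 0.29, adjusted p = 0.279). *Hk2* (-1.10, adjusted p = 0.129) and *Aldoc* (0.93, adjusted p = 0.332) did not pass either. The low levels were shared in part by the other GABAergic-like cells (457 and 34 cells), a class in no test. They had 56.1 and 24.8 CPM of *Ldha*, 50.1 and 24.8 CPM of *Aldoa*, and 65.3 and 49.5 CPM of *Eno1*. In replicate 3 these levels rested on 4, 4 and 8 UMIs. *Pgk1* (84.3 and 61.9 CPM) and *Pkm* (220.5 and 228.9 CPM) lay between MGE interneuron-like and PN-like cells in both replicates. *Hk1* was not low in the other GABAergic-like cells (28.2 and 37.1 CPM). The 10 genes took 0.0529% and 0.0433% of the UMIs of this class, at a median depth of 4991 and 4119.5 UMIs.

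Measures of depth and RNA content moved with this result. The median depth was 4512.5 and 4019 UMIs in MGE interneuron-like cells against 11221 and 10763 in PN-like cells. Ribosomal protein genes took 4.18% and 3.99% of UMIs against 8.46% and 8.34%, the nuclear RNA *Malat1* 2.27% and 2.22% against 1.57% and 1.70%, and mitochondrial genes 4.48% and 5.14% against 3.17% and 3.67%. Projection neuron markers summed to 38.9% and 41.8% of their own level in MGE interneuron-like cells, with none of the 10 markers at 0. The list holds *Mapt*, *Stmn2*, *Sox5* and *Mef2c* beside *Neurod6* and *Tbr1*. Such a sum cannot tell RNA from other cells apart from the class's own expression. The part of these measures in the result was not tested. With each cell thinned to 1500 UMIs before summing 5 of the 10 genes passed, where 2669 of 9376 genes did. The stricter filter on cells left 4, where 2462 of 11430 genes passed. With the stricter filter *Eno1* (-0.93, adjusted p = 0.0513) and *Slc2a1* (-1.78, adjusted p = 0.1) did not pass, and with thinning *Slc2a1* (-0.96, adjusted p = 0.263) did not. Of all genes called, 43.7% were higher in MGE interneuron-like cells after TMM scaling and 60.9% with DESeq2, while all 6 genes were lower under both.

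*Slc2a1* marked endothelial-like cells. It reached 992 and 750.5 CPM there, against 16.9 and 16.2 CPM among RGC-like, 15.6 and 12.3 CPM in pericyte-like, 13.9 and 16.6 CPM in meningeal-like and 2.81 and 17.3 CPM in erythroid-like cells. Endothelial-like cells exceeded RGC-like cells by 5.73 (log2, SE 0.22, adjusted p = 9.13e-11), which is 53.1-fold, and pericyte-like cells lay below endothelial-like cells (-5.99, SE 0.30, adjusted p = 1.45e-08). With cells thinned to 1500 UMIs, 65.4% (95% Wilson interval 46.2 to 80.6) and 65.6% (53.0 to 76.3) of endothelial-like cells held an *Slc2a1* UMI, against 1.01% and 1.47% of PN-like cells. Endothelial markers summed to 0.125% and 0.212% of their endothelial level in RGC-like cells and to 4.34% and 4.99% in pericyte-like cells, where *Slc2a1* stood at 15.6 and 12.3 CPM.

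Against RGC-like cells 3 of the 10 genes were higher in endothelial-like cells and 5 lower, where 46.5% of all genes passed the threshold (20.7% higher and 25.8% lower). Besides *Slc2a1* the higher genes were *Hk1* (22.2 and 31.7 CPM, log2 fold change 1.52, SE 0.36, adjusted p = 0.00313) and *Aldoa* (228 and 171 CPM, 0.75, SE 0.16, adjusted p = 0.00185). The genes *Hk2*, *Aldoc* and *Slc2a3* gave few UMIs. *Hk2* was found in 1 UMI of both endothelial-like sums together, against 24.0 CPM among RGC-like cells, a ratio of 34.1 with an exact 95% counting interval from 6.10 to 1350 (adjusted p = 5.71e-05). *Aldoc* had 0 UMIs in replicate 1 and 10.2 CPM in replicate 3 (adjusted p = 1.05e-06). *Slc2a3* had 3 UMIs in all, a level 3.90 times lower than in RGC-like cells (counting interval 1.32 to 19.0, adjusted p = 0.0842). *Pgk1* (-1.26), *Eno1* (-0.90) and *Ldha* (-0.82) were lower as well, with adjusted p from 0.000160 to 0.0101, while *Pkm* was at 522 and 518 CPM and did not pass (-0.20, adjusted p = 0.414). With cells thinned to 1500 UMIs 4 of the 10 genes passed, where 2142 of 9376 genes did. *Hk1*, *Aldoa*, *Hk2* and *Eno1* then did not pass (adjusted p from 0.0587 to 0.678). *Ldha* lost its call with the stricter cell filter (-0.73, adjusted p = 0.141) and *Aldoa* without the low-count filter (0.43, adjusted p = 0.0825). Without replicate 3 *Hk1* was at 0.92. Projection neuron markers in endothelial-like cells summed to 5.74% and 8.41% of their level in PN-like cells, and RGC markers to 10.4% and 12.2% of that in RGC-like cells, and their part in these levels was not tested. Of all genes called, 44.5% were higher in endothelial-like cells after TMM scaling and 56.2% with DESeq2.

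Between the vascular classes 2 genes passed the threshold, *Slc2a1*, lower in pericyte-like cells, and *Aldoa*, higher in them, where 21.4% of all genes passed (10.4% higher and 10.9% lower). *Aldoa* reached 454 and 458 CPM in pericyte-like cells, its highest level in a named class, against 228 and 171 CPM in endothelial-like cells (1.18, SE 0.17, adjusted p = 0.000154). *Ldha* stood at 366.5 and 415 CPM against 252 and 226 CPM (0.68, SE 0.25, adjusted p = 0.0634) and *Pkm* at 331 and 384.5 CPM against 522 and 518 CPM (-0.57, SE 0.20, adjusted p = 0.0519). With the replicate block both passed (adjusted p = 0.0239 and 0.00923), so that 4 genes were called. *Slc2a3*, *Hk2* and *Aldoc* had 2, 3 and 4 UMIs over both pericyte-like sums, too few for a comparison. *Hk1* (0.34, adjusted p = 0.642), *Pgk1* (0.06, adjusted p = 0.927) and *Eno1* (0.16, adjusted p = 0.734) did not pass. Projection neuron markers summed to 14.5% of their own level in pericyte-like cells of both replicates and RGC markers to 15.7% and 22.7%, and their part in these levels was not tested.

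In erythroid-like cells globin genes took 83.2% and 85.2% of UMIs, and the 10 genes had 69 and 115 UMIs in all. The share of the 10 genes was 0.0194% and 0.0199% of all UMIs, the lowest of the named classes, but 0.115% and 0.134% of the UMIs outside globin genes, near the share in IPC-like cells. *Pkm* (70.3 and 63.9 CPM), *Ldha* (19.7 and 44.9 CPM), *Pgk1* (30.9 and 27.6 CPM) and *Eno1* (30.9 and 13.8 CPM) gave most of these UMIs. Few cells held them, 5 of 67 and 22 of 114 for *Pkm* and 6 of 67 and 7 of 114 for *Ldha*. *Slc2a3* and *Hk2* had 0 UMIs in both replicates, where a count of 0 allows up to 3 UMIs, or 3.21 CPM over both sums, which puts *Hk2* at least 7.47-fold and *Slc2a3* at least 2.56-fold below RGC-like cells on the CPM scale. Outside globin genes the *Hk2* bound is 1.17-fold and the *Slc2a3* level of RGC-like cells lies under the limit. Against RGC-like cells 1 gene passed the threshold, where 11.1% of all genes did (5.2% higher and 5.94% lower). This was *Slc2a1* (2.52, SE 0.60, adjusted p = 0.0138), which rested on 1 UMI in replicate 1 and on 10 UMIs from 3 of 114 cells in replicate 3. It was 0.22 without replicate 3 and 3.30 without replicate 1, and did not pass with the stricter filter on cells (adjusted p = 0.0864). The other 9 genes did not pass (adjusted p from 0.146 to 0.982).

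Directions in this class depended on the scaling. With library sizes alone 8 of the 10 genes passed the threshold, all lower in erythroid-like cells, where 10253 of 12534 genes passed. *Slc2a1*, *Hk1* and *Aldoa* changed sign, with *Slc2a1* at -0.50. The median of all genes was then -3.44, against -0.75 with TMM scaling and -0.26 with DESeq2. Leaving out the 3 erythroid-like cells with less than 50% globin UMIs moved *Ldha* from -0.59 to -1.87 (adjusted p = 0.00786). Projection neuron markers summed to 4.18% and 2.59% of their own level in erythroid-like cells and RGC markers to 2.29% and 3.12%, while *Aldoc* stood at 16.9 and 15.5 CPM against 301 and 318 CPM among RGC-like cells. The part of RNA from other cells in the erythroid levels was not tested.

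The remaining named classes filled the range. Microglia-like cells, whose cluster also held macrophage genes, had the highest *Hk2* of the named classes (43.5 and 37.5 CPM) together with 348 and 470 CPM of *Ldha* and 312 and 346 CPM of *Aldoa*. Cajal-Retzius-like cells, early neurons of the marginal zone, had 277 and 198 CPM of *Aldoa*, more than PN-like cells, with *Hk1* at 40.3 and 26.4 CPM and *Hk2* at 3.77 and 3.59 CPM. Meningeal-like cells had 225 and 227 CPM of *Aldoa* and 0 and 2.87 CPM of *Aldoc*. *Aldoc* stayed at or under 20.2 CPM in every named class other than RGC-like and IPC-like cells, but in erythroid-like cells it reached 100.1 and 104.6 CPM when globin genes were left out of the sums. Those erythroid levels rested on 6 UMIs, all from 1 of 67 cells, and on 9 UMIs from 7 of 114 cells.

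Of 22 other glycolytic enzyme genes 12 were expressed highly enough for the test. In RGC-like against PN-like cells 6 were higher and 6 lower, with a median of 0.07, where 62.4% of all genes passed. *Pgam1*, the phosphoglycerate mutase, was higher (1.21, adjusted p = 6.01e-06), while *Pfkp*, a phosphofructokinase (-3.17, adjusted p = 3.72e-08), *Eno2* (-2.43, adjusted p = 1.93e-06) and *Pfkfb4* (-1.74, adjusted p = 5.57e-06) were lower. *Pfkp* had 2.75 and 2.80 CPM among RGC-like cells against 25.4 and 22.1 CPM in PN-like cells, and was higher in endothelial-like than in RGC-like cells by 3.67 (adjusted p = 6.77e-07). In MGE interneuron-like against PN-like cells 1 of the 12, *Bpgm* (1.39, adjusted p = 0.00515), was higher and 7 were lower (15% and 19.3% of all genes), with a median of -0.74, among the lower ones *Gpi1* (-1.87, adjusted p = 8.22e-06) and *Tpi1* (-1.64, adjusted p = 0.000130). *Bpgm*, which makes the haemoglobin ligand 2,3-bisphosphoglycerate in red cells, was the enzyme called in erythroid-like against RGC-like cells, at 866 and 900 CPM against 25.3 and 27.1 CPM (8.08, SE 0.35, adjusted p = 6.59e-10).

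Of 15 genes of lactate and pyruvate handling 14 were tested. *Bsg*, the chaperone of monocarboxylate transporters, was higher in endothelial-like than in RGC-like cells (2226 and 982 CPM against 161 and 171 CPM, 3.30, adjusted p = 6.64e-07), where 5 genes of the list were lower (25.8% of all genes), among them *Ldhb* (-1.92, adjusted p = 5.12e-05). *Slc16a3*, a lactate exporter, was higher in pericyte-like than in endothelial-like cells (9.75 and 12.3 CPM against 1.85 and 0 CPM, adjusted p = 0.0239), on 13 UMIs against 1. In RGC-like against PN-like cells 2 genes of the list were higher, *Slc16a3* (1.67, adjusted p = 0.00140) and *Pdk3* (1.09, adjusted p = 5.71e-05), and 4 lower (30.6% and 31.8% of all genes), among them *Slc16a7* (-1.71, adjusted p = 3.95e-05) and the pyruvate carrier gene *Mpc1* (-0.90, adjusted p = 8.27e-05). Of the 14 genes, 8 were lower in MGE interneuron-like than in PN-like cells and 1, *Pdk3* (1.47, adjusted p = 0.000134), was higher, where 19.3% of all genes were lower and 15% higher.

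Of 7 tested genes of the pentose phosphate pathway 4 were higher in RGC-like than in PN-like cells and 1 lower, where 30.6% of all genes were higher and 31.8% lower, the higher ones being led by *Tkt* (1.09, adjusted p = 0.000216), *Pgls* (1.03, adjusted p = 4.56e-05) and *Pgd* (0.82, adjusted p = 0.000679), while *G6pdx*, the entry enzyme, was lower (-0.91, adjusted p = 0.000467). Of 4 tested sugar transporters *Slc2a10* was higher in RGC-like than in PN-like cells, on 16 UMIs against 0, and *Slc2a8* was lower (-0.88, adjusted p = 0.00339).

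Of 16 tested genes of a hypoxia response list 4 were higher and 5 lower in RGC-like than in PN-like cells, with a median of 0.03, where 30.6% and 31.8% of all genes did so. *Egln3*, a HIF prolyl hydroxylase (25.5 and 16.4 CPM against 0.383 and 0.177 CPM, 5.22, adjusted p = 1.31e-08), and *Bhlhe40* (3.57, adjusted p = 9.47e-07) were higher, and *Ndrg1* was lower (-4.36, adjusted p = 1.37e-09). In endothelial-like against RGC-like cells 5 were higher and 3 lower (20.7% and 25.8% of all genes), the higher ones led by *Epas1*, which encodes HIF2A (350 and 273 CPM against 0.529 and 0.541 CPM, 8.66, adjusted p = 9.48e-11), with *Ankrd37* (3.59, adjusted p = 2.18e-06) and *Adm* (59.2 and 20.4 CPM against 1 UMI in all RGC-like cells). Within RGC-like cells 4 of 13 tested genes were lower in S than in G1 and none was higher (2.49% and 7.16% of all genes), namely *P4ha1* (-0.87, adjusted p = 0.00595), *Ddit4* (-1.08, adjusted p = 0.0123), *Kdm3a* (-0.59, adjusted p = 0.0173) and *Bnip3* (-1.12, adjusted p = 0.0311).

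Genes with the most similar pattern were sought over 22 sums (11 classes in 2 replicates) among 9749 genes, as Pearson's r of log2(CPM + 1), where sums of 1 replicate share a library. Totals included globin UMIs, which took 83.2% and 85.2% of the erythroid-like sums and lower the CPM of other genes there alike. The part of this in r was not tested. *Pgk1* was most like *Gapdh* (r = 0.964), *Tkt* (0.952) and *Eno1* (0.952). *Aldoa* was most like *Cox4i1* (0.973), *Ndufb8* (0.970) and *Ndufs8* (0.969), genes of the respiratory chain. *Slc2a1* was most like *Slc7a5* (0.906), *Zfp366* (0.903) and *Kdr* (0.902), and *Aldoc* like *Ttyh1* (0.832), *Fabp7* (0.823) and *Sox21* (0.807). *Hk1* was most like *Stx1a* (0.896), *Pfkp* (0.894) and *Sptbn1* (0.882).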

How the data were processed

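The files held UMI counts for each gene in each barcode, made by the authors with Cell Ranger 7.0.0 on mm10 (submitters' processing notes) from papain-dissociated tissue and used as deposited. Whether intronic reads were counted is not given in the sources used here, and a setting that counts them would raise long genes. A second identifier with the symbol *Aldoa* was not used, *Eno1* has a near-identical copy (*Eno1b*), and reads shared between such copies could have been split. Depth was 64182006 and 93295807 UMIs. The 10 genes and all lists were chosen with earlier results of these data known.

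Cells needed 1500 to 60000 UMIs, with mitochondrial genes under 10% (cut-offs of the study's single nucleus data). Doublets were scored by simulation as in Scrublet. The cells with the highest scores were removed at a rate set beforehand, 0.8% for every 1000 cells (4.36% and 5.99% of cells). Counts were scaled to 10000, and 2000 variable genes without the 10 genes and the pathway lists gave 30 components and 25 Leiden clusters (resolution 1.0). A name needed 3 markers, and differences from other accounts may come from these rebuilt names. Where markers of another class were summed, RNA from other cells and a class's own expression of these genes cannot be told apart. Class sums were fitted together (7 classes, 14 sums) with edgeR's quasi-likelihood test, TMM scaling, its filter on low counts and Benjamini-Hochberg adjustment at 0.05. Fold changes are log2 with a prior count of 2, and SE was derived from the fold change and its F statistic. Calls between classes built from the same cells are not independent evidence of cell types. Phases were scored from lists of 43 S and 53 G2M genes after thinning to 3000 UMIs. Replicate numbers pair the sums because sums of 1 number come from 1 library. The correlation of deviations across genes ran from -0.00541 to 0.370 over 21 class pairs, with a median of 0.0413. It was highest for RGC-like with IPC-like (0.370), IPC-like with PN-like (0.322) and RGC-like with PN-like sums (0.279). It was not computed for the phase sums. A fit with the replicate number as a block was an alternative.

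All 10 genes are named in every comparison, and of each list up to 4 called genes that changed alike in both replicates, by size of change. The edgeR test was checked on simulated counts in which few genes changed. That check does not cover comparisons in which a large part of all genes differed. Software was Python 3.11.15, numpy 2.4.6, scipy 1.17.1, scikit-learn 1.9.0, leidenalg 0.10.2, R 4.3.3, edgeR 4.0.16 and DESeq2 1.42.0. Alternatives are listed in the closing section.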

Additional observations from a re-analysis of the deposited data

Results flagged for a closer look

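A second gene identifier with the symbol *Aldoa* held 84 UMIs over all barcodes, against 16909 UMIs of the one used, and is listed because it took no part in any comparison. The 2 clusters that stayed unnamed also expressed the 10 genes, above the limit that a count of 0 allows. In the cluster led by *Ttr*, *Htr2c* and *Rspo2* they took 0.153% of UMIs in replicate 1 and 0.174% in replicate 3, and in the cluster led by *Krt14*, *Cxcl14* and *Krt15* 0.202% and 0.242%. Groups of 2 samples were too small to test for samples that stand apart.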

How the results depend on the processing

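Of 943 values of single genes under alternatives with a test, 850 kept their direction and their side of the threshold, 22 lost and 54 gained a call, and 17 changed sign. Scaling by library sizes alone or by DESeq2 moved the median of all genes by over 0.1 on the log2 scale in 5 comparisons. With cells thinned to 1500 UMIs fewer genes were tested (9376) and passed, 5138 for RGC-like against projection neuron-like, 3242 for RGC-like against IPC-like, 3507 for IPC-like and 2669 for MGE interneuron-like against projection neuron-like, 2142 for endothelial-like (4 of the 10 genes) and 868 for erythroid-like against RGC-like (2 of the 10), and 658 for pericyte-like against endothelial-like. The stricter filter on cells gave 2462 for MGE interneuron-like cells. In pericyte-like against endothelial-like cells 4 of the 10 passed with DESeq2 and with the replicate block. In erythroid-like against RGC-like cells 10253 genes (8 of the 10) passed with library sizes, 2671 (4) without the low-count filter, 907 (0, and 1 in the main result) with the stricter cell filter, 3 of the 10 without a cell filter, 2 with doublets kept and 2 with at least 50% globin. Between phases 2184 (S) and 1934 (G2M) genes passed without the low-count filter and 3401 (5 of the 10) and 3187 (7) with the replicate block. The block moved no other count by over 1.5 times, and its other changes of a call stand beside the results.

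Signs changed for *Ldha* in IPC-like against projection neuron-like cells at finer clusters (-0.09) and for *Slc2a3* in MGE interneuron-like cells with DESeq2 (0.03). In pericyte-like against endothelial-like cells they did for *Slc2a3* without a cell filter (1.12) and with the stricter one (0.07), for *Aldoc* without a filter (3.94) and with doublets (0.16), and with thinning for *Hk2* (-2.22) and *Eno1* (-0.16). In erythroid-like against RGC-like cells they did with library sizes for *Slc2a1* (-0.50), *Hk1* (-1.56) and *Aldoa* (-3.00), for *Slc2a1* with thinning (-3.51), and for *Aldoa* without the low-count filter (-0.46), without the cell filter (-0.17), with doublets (-0.24), with thinning (-0.32) and at 50% globin (-0.56). The cause was not tested.

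The difference of pair shares between RGC-like and projection neuron-like cells, in percentage points, moved for *Hk2* from 58.2 to 59.5 (no cell filter), 57.7 (stricter), 52.6 (doublets), 58.9 (finer clusters) and 61.1 (thinned), for *Aldoc* from 69.0 to 66.5 (doublets) and 66.8 (thinned), for *Eno2* from -8.14 to -8.77 (no cell filter), -7.50 (coarser clusters) and -9.14 (finer, and thinned), and for *Ldhb* from -30.8 to -27.2 (doublets) and -27.1 (finer). Shares of cells with a UMI follow depth, with 87.3% at 3000 UMIs and 89.9% unthinned for *Slc2a1* in endothelial-like cells (mean 65.5%), and 54.9% and 85.7% for *Aldoc* in RGC-like cells (mean 32.5%).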
